A study of Homo sapiens with 6 samples.

Results

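The genes described here are those with the largest positive difference in LNCaP cells given a small interfering RNA (siRNA) against PCARNEQ. For each of 19775 measured genes the brightest probe set paired with that gene alone was taken, by its mean log2 intensity over all 6 arrays. A gene was kept where its mean log2 intensity was at least 1.5 higher with siPCARNEQ than with siEGFP and where all 3 siPCARNEQ arrays lay above all 3 siEGFP arrays. These criteria were met by 116 genes, or 0.587% of those measured, and the mirrored criteria for lower genes by 148, or 0.748%. All arrays of one group lay above those of the other in 22.3% of genes (siPCARNEQ higher) and 21.7% (siPCARNEQ lower). Leaving out 18 of the 116 by name (S1PR3, DIO1, THRSP, KRT19, PLA2G2A, SEMA3C, MSMB, ACP3, AQP3, IL6R, HSD3B1, CYP3A5, CGN, MAF, TRIM22, HMOX1, CDKN1C and CAMK2N1) left 98 members. Because the measured difference itself chose the members, their differences are given as a description and were not tested.

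LNCaP is an established human prostate cancer line that carries the androgen receptor, and PCARNEQ is a non-coding RNA. Cells received siRNA against PCARNEQ or, as control, siRNA against EGFP, a fluorescent protein of jellyfish origin that these cells lack, and each group was hybridised to 3 single-colour Affymetrix arrays. The labels give no siRNA sequence, dose or time and describe the measurements as a triplicate without naming separate cultures, so p-values reflect the spread among the 3 arrays of a group alone, and that spread may be technical. No probe set was paired with PCARNEQ in the annotation used, so depletion of the target itself was not analysed here.

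An siRNA guides the RNA-induced silencing complex to transcripts that match it, which lowers those transcripts, and other transcripts can follow directly or indirectly. An array reads the steady-state level of a transcript, which depends on both synthesis and decay. A probe set reads only a short stretch near one end of a transcript, so probe sets of one gene can report different isoforms.

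The arrays had been brought to 1 common distribution, with a median intensity of 130.8 (7.03 on the log2 scale) on each. The number of arrays limits the precision. Array 1 stood apart from arrays 2 and 3 in both groups. Over all non-control probe sets the log2 difference between arrays 2 and 3 had an SD of 0.136 (siPCARNEQ) and 0.129 (siEGFP). The differences from array 1 had an SD of 0.371 to 0.373 (siPCARNEQ) and 0.232 to 0.239 (siEGFP). The 3′ minus 5′ log2 signal of the ACTB control, a sign of RNA integrity, was 1.84 on siPCARNEQ array 1 and 0.63 to 0.78 on the other 5. The members' differences are therefore also given within array 1 and within arrays 2 and 3. In RNA from whole cultures, more cells that express a gene and more RNA per cell cannot be told apart.

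The members differed by 1.5 to 2.92 on the log2 scale, with a median of 1.79, against a median of -0.01 over all genes. In 26 members the siPCARNEQ mean was at least 4-fold the siEGFP mean. Nothing is read from the lack of overlap in all 98 members, since the rule required it. The lowest siPCARNEQ array exceeded the highest siEGFP array by a median of 1.49 on the log2 scale. That gap was 1 or more in 85 members and under 0.5 in 3 members, namely MATN2 (0.36), LPXN (0.43) and GPNMB (0.08). The siEGFP means spread from 4.52 to 11.32 and the siPCARNEQ means from 6.06 to 13.09. In 40 members, 40.8% against 37.0% of all genes, the siEGFP mean lay below the array median of 7.03, and in 5 members the siPCARNEQ mean did. By gene type, 90 members code for protein, 5 are long non-coding RNAs and 3 are transcribed pseudogenes.

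In what follows, values are log2 intensities of arrays 1, 2 and 3 in that order. A level is that of 1 probe set and is not compared between genes. ARL15, an ARF-like small GTPase, read 10.58, 10.37 and 10.28 with siPCARNEQ and 7.63, 7.43 and 7.41 with siEGFP, the largest difference of all members at 2.92. The group means were 10.41 ± 0.15 and 7.49 ± 0.12 (SD, n = 3), and its lowest siPCARNEQ array lay 2.66 above its highest siEGFP array, the widest gap among the members. STON1, a stonin related to the adaptors of clathrin-mediated endocytosis, read 8.65, 8.22 and 8.23 with siPCARNEQ and 5.32, 5.63 and 5.58 with siEGFP, with means of 8.37 ± 0.25 and 5.51 ± 0.17 (SD, n = 3) and a difference of 2.85. Both genes were well separated on every array, with the siEGFP arrays of STON1 below the array median.

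SERPIND1 encodes heparin cofactor II, a serpin that inhibits thrombin, and read 8.66, 9.13 and 9.12 with siPCARNEQ and 6.23, 6.55 and 6.46 with siEGFP, a difference of 2.56 between means of 8.97 ± 0.27 and 6.41 ± 0.17 (SD, n = 3). SCGB1D2, a secretoglobin also known as lipophilin B, read 7.53, 8.05 and 8.17 with siPCARNEQ and 5.51, 5.75 and 5.57 with siEGFP, a difference of 2.30 between means of 7.91 ± 0.34 and 5.61 ± 0.13 (SD, n = 3). In both secreted-protein genes all siEGFP arrays were below the array median and array 1 was the lowest of its group with siPCARNEQ. SMIM3, a small integral membrane protein, read 11.23, 10.40 and 10.41 with siPCARNEQ and 8.91, 8.05 and 8.19 with siEGFP, a difference of 2.30. Array 1 was the highest of both groups for SMIM3. PRKCA, the protein kinase C alpha isoform that responds to calcium and diacylglycerol, read 10.99, 10.49 and 10.44 with siPCARNEQ and 8.11, 8.50 and 8.44 with siEGFP, a difference of 2.29. CTNNA2, the neural alpha-catenin that links cadherins to actin, read 8.77, 9.60 and 9.59 with siPCARNEQ and 6.43, 7.37 and 7.38 with siEGFP, a difference of 2.26. Array 1 was the lowest of both groups for CTNNA2, while for PRKCA it was the highest siPCARNEQ and the lowest siEGFP array.

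The 250 bases upstream of the annotated start of 6 of these genes are shown, 5′ to 3′ on the gene's strand, from RefSeq on GRCh38.p14. They are the leading genes with a window in the RefSeq promoter table, which leaves out STON1. CG pairs are in capitals, since CG density separates the main promoter classes of the human genome. The windows are ARL15 at chr5:54310574-54310823 (minus strand), SERPIND1 at chr22:20773863-20774112 (plus), SCGB1D2 at chr11:62241989-62242238 (plus), SMIM3 at chr5:150778507-150778756 (plus), PRKCA at chr17:66302363-66302612 (plus) and CTNNA2 at chr2:79185127-79185376 (plus).
ARL15: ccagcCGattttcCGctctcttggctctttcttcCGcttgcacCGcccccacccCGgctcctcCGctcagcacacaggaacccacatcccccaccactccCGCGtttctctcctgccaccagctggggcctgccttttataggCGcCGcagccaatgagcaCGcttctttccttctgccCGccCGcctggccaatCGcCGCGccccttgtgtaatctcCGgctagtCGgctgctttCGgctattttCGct
SERPIND1: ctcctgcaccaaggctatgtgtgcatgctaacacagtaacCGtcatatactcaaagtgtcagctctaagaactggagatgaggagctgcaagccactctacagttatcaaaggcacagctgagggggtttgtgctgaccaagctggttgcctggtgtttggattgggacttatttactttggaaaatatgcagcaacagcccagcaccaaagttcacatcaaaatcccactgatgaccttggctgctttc
SCGB1D2: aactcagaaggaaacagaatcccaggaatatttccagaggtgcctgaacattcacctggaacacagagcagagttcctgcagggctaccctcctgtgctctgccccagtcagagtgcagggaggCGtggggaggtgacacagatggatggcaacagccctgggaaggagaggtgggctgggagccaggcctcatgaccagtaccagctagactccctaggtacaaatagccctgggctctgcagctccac
SMIM3: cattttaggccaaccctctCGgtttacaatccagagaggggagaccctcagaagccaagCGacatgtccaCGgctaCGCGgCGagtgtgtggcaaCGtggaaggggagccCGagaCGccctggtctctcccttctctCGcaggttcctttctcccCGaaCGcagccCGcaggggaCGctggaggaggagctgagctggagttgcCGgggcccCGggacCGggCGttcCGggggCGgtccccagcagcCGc
PRKCA: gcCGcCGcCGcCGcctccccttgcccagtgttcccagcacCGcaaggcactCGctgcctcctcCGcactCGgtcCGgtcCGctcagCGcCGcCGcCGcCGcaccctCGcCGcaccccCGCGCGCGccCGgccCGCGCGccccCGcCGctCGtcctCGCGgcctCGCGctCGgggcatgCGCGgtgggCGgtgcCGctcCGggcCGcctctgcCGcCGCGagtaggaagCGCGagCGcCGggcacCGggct
CTNNA2: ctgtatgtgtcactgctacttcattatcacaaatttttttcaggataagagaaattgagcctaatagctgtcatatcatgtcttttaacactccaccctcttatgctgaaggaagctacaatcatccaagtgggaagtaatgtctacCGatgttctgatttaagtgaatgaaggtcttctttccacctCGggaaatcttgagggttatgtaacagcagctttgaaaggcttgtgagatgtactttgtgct
The 6 windows span the range from nearly no CG pairs to many. SERPIND1 and SCGB1D2 have 1 CG pair each, CTNNA2 has 2, ARL15 has 20, SMIM3 has 21 and PRKCA has 47. The observed count over the count expected from the C and G content was 0.0706 for SERPIND1, 0.0484 for SCGB1D2, 0.209 for CTNNA2, 0.754 for SMIM3, 0.926 for ARL15 and 1.16 for PRKCA.

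**Figure D1:**
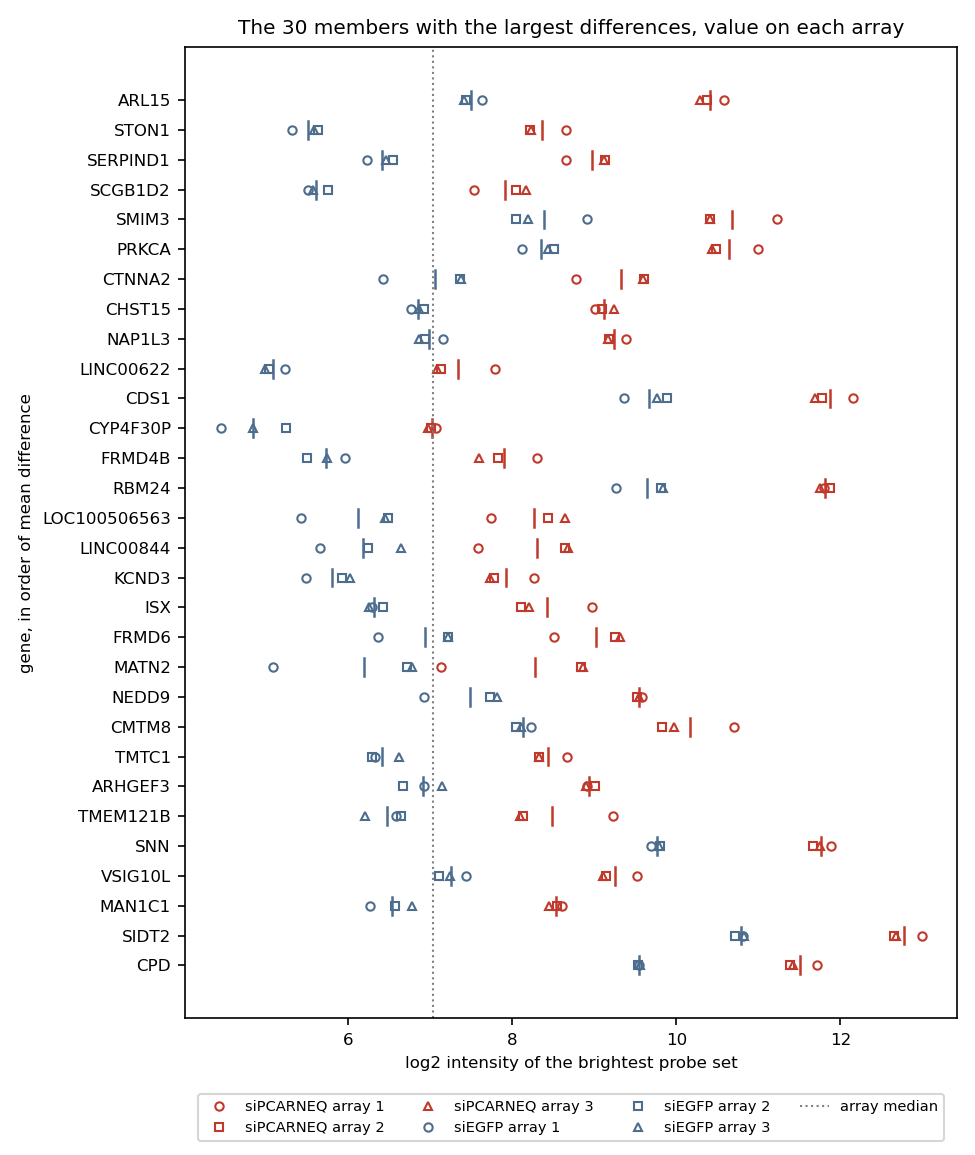
Log2 intensity of the 30 members with the largest difference, on each of the 6 arrays, with genes ordered by their difference; colour gives the siRNA, the marker shape the array, vertical bars the group means and the dotted line the array median. In each row all siPCARNEQ points lie to the right of all siEGFP points, as the rule required. The narrowest gap is at MATN2 (0.36), where array 1 is the lowest of both groups.

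The members were next grouped by what their products do, a grouping made after their values were seen. The 10 groups had median differences between 1.56 (7 receptors and channels) and 2.02 (8 non-coding RNAs and pseudogenes), and the ranges of the groups overlapped.

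**Figure D2:**
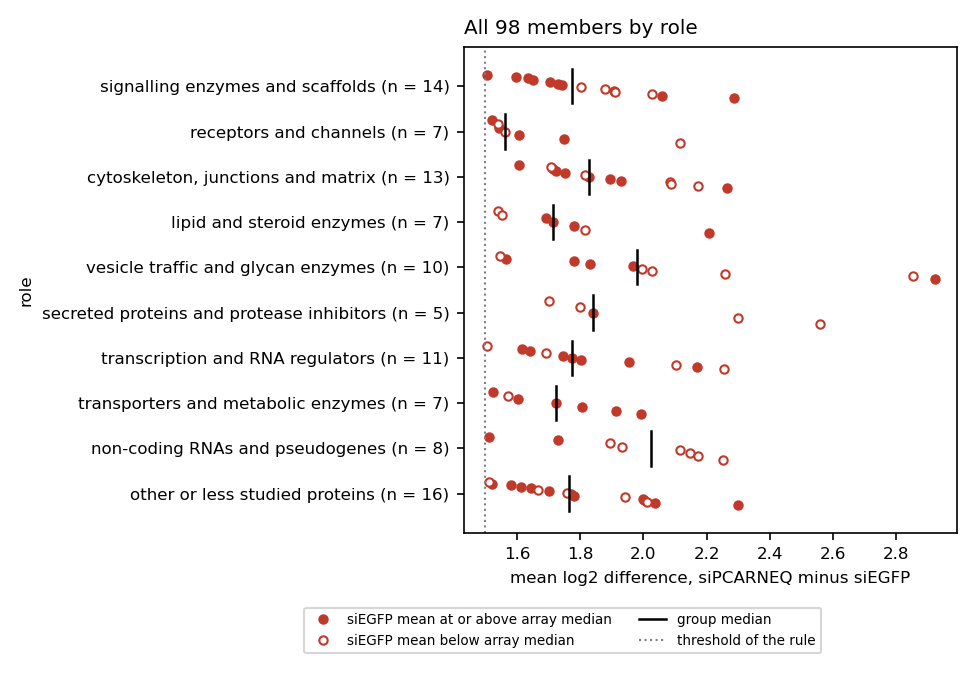
Log2 difference, siPCARNEQ minus siEGFP, of each of the 98 members by group of function, with 1 point a gene and a bar at the group's median. The medians run from 1.56 for receptors and channels to 2.02 for non-coding RNAs and pseudogenes, and the groups overlap over most of their range.

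The 10 members of vesicle traffic and glycan processing had a median difference of 1.98 and included the leading pair ARL15 and STON1. CHST15, a sulfotransferase that acts on chondroitin sulfate, read 9.01, 9.10 and 9.24 with siPCARNEQ and 6.77, 6.93 and 6.87 with siEGFP, a difference of 2.26. TMTC1, an enzyme of the endoplasmic reticulum that mannosylates cadherins, read 8.67, 8.32 and 8.33 with siPCARNEQ and 6.32, 6.29 and 6.62 with siEGFP, a difference of 2.03. MAN1C1, a Golgi alpha-mannosidase that trims N-glycans, read 8.60, 8.55 and 8.44 with siPCARNEQ and 6.27, 6.56 and 6.78 with siEGFP, a difference of 1.99. All 3 enzymes had siEGFP means below the array median and siPCARNEQ arrays well above it. CPD, a carboxypeptidase of the trans-Golgi network, read 11.72, 11.39 and 11.43 with siPCARNEQ and 9.54, 9.53 and 9.55 with siEGFP, a difference of 1.97, and its siEGFP arrays lay within a SD of 0.012. Another Golgi mannosidase, MAN1A1, was higher by 1.83, and KDELR3, a receptor that returns chaperones from the Golgi to the endoplasmic reticulum, by 1.78. NAPG, the gamma-SNAP of membrane fusion, was higher by 1.56, and APBA1, the Munc18-binding adaptor of synaptic exocytosis, by 1.55.

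Signalling enzymes and scaffolds made up 14 members, with a median difference of 1.77 and PRKCA as the largest. NEDD9, a focal adhesion scaffold of the Cas family, read 9.59, 9.52 and 9.54 with siPCARNEQ and 6.93, 7.73 and 7.81 with siEGFP, a difference of 2.06. ARHGEF3, an exchange factor that activates RhoA, read 8.91, 9.0 and 8.89 with siPCARNEQ and 6.92, 6.66 and 7.14 with siEGFP, a difference of 2.03. The siPCARNEQ arrays of both lay close together (SD of 0.03 and 0.06), and siEGFP array 1 of NEDD9 was the lowest of its group. The kinases MYLK, which phosphorylates myosin light chain, and EIF2AK3, also known as PERK and a sensor of unfolded proteins, were higher by 1.91 and 1.5. The calcium-linked members were RCAN3, a regulator of calcineurin (1.91), and CALML4, a calmodulin-like protein (1.60). Phosphatase-related members were CDC14B (1.64), PPP1R3B, which targets protein phosphatase 1 to glycogen (1.70), and the pseudophosphatase-like STYXL2 (1.88). PDE7A, which hydrolyses cyclic AMP, was higher by 1.73, RALGPS1, an exchange factor for RAL GTPases, by 1.65, SPSB1, a substrate adaptor of ubiquitin ligases, by 1.80, and LPXN, a focal adhesion protein related to paxillin, by 1.74.

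Cytoskeletal, junction and matrix genes gave 13 members with a median difference of 1.83, led by CTNNA2. FRMD4B, a FERM domain scaffold, read 8.30, 7.82 and 7.60 with siPCARNEQ and 5.96, 5.50 and 5.74 with siEGFP, a difference of 2.17. FRMD6, a FERM domain protein also called willin, read 8.50, 9.26 and 9.31 with siPCARNEQ and 6.36, 7.22 and 7.22 with siEGFP, a difference of 2.09. MATN2, a matrilin of the extracellular matrix, read 7.13, 8.84 and 8.86 with siPCARNEQ and 5.08, 6.72 and 6.77 with siEGFP, a difference of 2.08. For MATN2, array 1 minus the mean of arrays 2 and 3 was -1.72 with siPCARNEQ and -1.67 with siEGFP. Its lowest siPCARNEQ array lay only 0.36 above its highest siEGFP array. The intermediate filament protein SYNM was higher by 1.83, the nuclear envelope nesprin SYNE2 by 1.93, the tight junction protein CGNL1 by 1.90, the actin-binding coronin CORO2A by 1.75 and the formin FHOD3 by 1.71. SHANK2, a scaffold of the postsynaptic density, was higher by 1.72. Matrix and secreted matrix-associated members were COL12A1, a fibril-associated collagen (1.82), FSTL1, a follistatin-like glycoprotein (1.71), and SPOCK1, a testican proteoglycan (1.61).

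The 5 secreted proteins and protease inhibitors had a median difference of 1.84. Besides SERPIND1 and SCGB1D2 they were SLPI, an inhibitor of neutrophil elastase, which was higher by 1.84, CRISP3, a cysteine-rich secretory protein found in seminal plasma, by 1.80, and CSTA, the cystatin A inhibitor of cysteine proteases, by 1.70. SLPI read 11.46, 11.75 and 11.87 with siPCARNEQ and 9.84, 9.78 and 9.93 with siEGFP, and CRISP3 read 7.06, 7.41 and 7.20 with siPCARNEQ and 4.94, 5.60 and 5.73 with siEGFP. All siEGFP arrays of SLPI were far above the array median and all of CRISP3 below it.

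Lipid and steroid enzymes numbered 7, with a median difference of 1.71. CDS1, which makes CDP-diacylglycerol for phosphoinositide synthesis, read 12.16, 11.78 and 11.69 with siPCARNEQ and 9.36, 9.88 and 9.76 with siEGFP, a difference of 2.21. AKR1C3, an aldo-keto reductase that makes testosterone from androstenedione, read 7.75, 8.23 and 8.13 with siPCARNEQ and 6.15, 6.74 and 6.60 with siEGFP, and HSD17B2, which oxidises testosterone and estradiol to their weaker forms, read 6.76, 6.96 and 6.91 with siPCARNEQ and 5.53, 5.12 and 5.31 with siEGFP. These 2 enzymes act on androgens in opposite directions and were higher by 1.54 and 1.55. PLA2G7, the phospholipase that inactivates platelet-activating factor, was higher by 1.82, PLA1A, a phosphatidylserine-specific phospholipase, by 1.78, the phospholipid flippase ATP8B2 by 1.69 and the acyltransferase GLYATL2 by 1.71.

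The 11 transcription and RNA regulators had a median difference of 1.78. NAP1L3, a nucleosome assembly protein-like protein, read 9.38, 9.17 and 9.17 with siPCARNEQ and 7.15, 6.94 and 6.87 with siEGFP, a difference of 2.26. RBM24, an RNA-binding splicing regulator of muscle, read 11.80, 11.87 and 11.75 with siPCARNEQ and 9.26, 9.81 and 9.83 with siEGFP, a difference of 2.17. ISX, a homeobox factor of the intestine that represses carotenoid-handling genes, read 8.97, 8.10 and 8.21 with siPCARNEQ and 6.28, 6.43 and 6.25 with siEGFP, a difference of 2.10. The siPCARNEQ arrays of RBM24 were within a SD of 0.06, while siPCARNEQ array 1 of ISX lay 0.81 above the mean of the other two. SOX9, a factor of prostate bud growth and chondrogenesis, was higher by 1.74, MYCL, a MYC family member, by 1.64, MAFF, a small MAF protein, by 1.69, and PPARGC1A, a coactivator of mitochondrial gene expression, by 1.51. CREBRF, a regulatory factor of CREB3, was higher by 1.78, and NEXMIF by 1.80, with the zinc finger genes ZNF697 and ZCCHC24 at 1.95 and 1.62. PPARGC1A read 6.94, 5.64 and 5.81 with siPCARNEQ and 4.59, 4.52 and 4.77 with siEGFP, so siPCARNEQ array 1 was far above the other 2 and its difference was 2.36 in array 1 and 1.08 in arrays 2 and 3.

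Receptors and channels were 7 members with the lowest median difference, 1.56. KCND3, a voltage-gated potassium channel of the A-type current, read 8.27, 7.77 and 7.73 with siPCARNEQ and 5.48, 5.92 and 6.02 with siEGFP, a difference of 2.12. ADRB1, the beta-1 adrenergic receptor, was higher by 1.75, SSTR1, a somatostatin receptor, by 1.56, and KREMEN1, a receptor for the WNT inhibitor Dickkopf, by 1.61. DNER, a transmembrane ligand of Notch, was higher by 1.54, the scavenger receptor COLEC12 by 1.52 and GPNMB, a glycoprotein of melanosomes and lysosomes, by 1.54. GPNMB read 9.60, 11.44 and 11.44 with siPCARNEQ and 8.86, 9.47 and 9.52 with siEGFP, so its siPCARNEQ array 1 lay only 0.08 above the highest siEGFP array.

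Transporters and metabolic enzymes numbered 7, with a median difference of 1.72. SIDT2, a lysosomal membrane protein of nucleic acid uptake, read 12.99, 12.65 and 12.68 with siPCARNEQ and 10.81, 10.71 and 10.82 with siEGFP, a difference of 1.99. The mitochondrial carrier SLC25A16 was higher by 1.91, the zinc transporter SLC39A11 by 1.80 and the vitamin C transporter SLC23A1 by 1.57. The mitochondrial enzymes ABAT, which breaks down GABA, and HOGA1, of hydroxyproline breakdown, were higher by 1.72 and 1.60, and COQ10B, which binds coenzyme Q, by 1.52.

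The 8 non-coding RNAs and pseudogenes had a median difference of 2.02. LINC00622 read 7.79, 7.13 and 7.08 with siPCARNEQ and 5.23, 5.03 and 4.99 with siEGFP, a difference of 2.25. CYP4F30P, a pseudogene of the CYP4F family of fatty acid hydroxylases, read 7.07, 7.0 and 6.98 with siPCARNEQ and 4.44, 5.24 and 4.84 with siEGFP, a difference of 2.17. LOC100506563 read 7.74, 8.43 and 8.65 with siPCARNEQ and 5.43, 6.49 and 6.45 with siEGFP, a difference of 2.15, and LINC00844 read 7.58, 8.64 and 8.68 with siPCARNEQ and 5.66, 6.25 and 6.64 with siEGFP, a difference of 2.12. For the last pair array 1 was the lowest of both groups. The others were the pseudogenes ABCC6P1 (1.89) and CYP4F62P (1.51) and the antisense RNAs RFPL1S (1.93) and CTBP1-AS (1.73). Pseudogene probes can share sequence with their parent genes, and POTEM (1.65) belongs to a family of close copies, so the source of these signals is uncertain.

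The last 16 members are less studied or fall outside these groups, with a median difference of 1.76. CMTM8, a MARVEL domain membrane protein, read 10.70, 9.83 and 9.97 with siPCARNEQ and 8.23, 8.05 and 8.11 with siEGFP, a difference of 2.04. TMEM121B read 9.23, 8.13 and 8.10 with siPCARNEQ and 6.58, 6.64 and 6.20 with siEGFP, a difference of 2.01, and SNN, the small membrane protein stannin, read 11.88, 11.66 and 11.75 with siPCARNEQ and 9.69, 9.80 and 9.79 with siEGFP, a difference of 2.0. VSIG10L, an immunoglobulin domain protein, read 9.52, 9.14 and 9.11 with siPCARNEQ and 7.44, 7.10 and 7.24 with siEGFP, a difference of 2.0. SNN was even across arrays, while siPCARNEQ array 1 of TMEM121B lay 1.12 above the other two. The rest were GBP3, an interferon-inducible guanylate-binding protein (1.94), TMEM50B (1.78), SMCO4 (1.77), ELAPOR1 (1.76), the tetraspanin TSPAN31 (1.70), DISP2 (1.67), YPEL2 (1.61), EFHC2 (1.58), VWA5A (1.52) and LRRC31 (1.51), besides SMIM3 and POTEM.

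Just inside the threshold of 1.5 were VWA5A (1.52), CYP4F62P (1.51), LRRC31 (1.51), PPARGC1A (1.51) and EIF2AK3 (1.5). Just outside it were ABCG1, SMIM14, IL1R1, GABPB1 and NUDT16-DT, each with a difference of 1.49. The threshold thus cuts a continuous range of differences.

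The members varied more between arrays of 1 group than genes at large: the median SD was 0.22 with siPCARNEQ and 0.17 with siEGFP, against 0.11 and 0.09 over all genes. Array 1 lay over 0.5 away from the mean of arrays 2 and 3 in 25 members with siEGFP (25.5% against 2.96% of all genes) and in 33 with siPCARNEQ (33.7% against 8.74%). In 64 members it was displaced in the same direction in both groups, 65.3% against 65.2% of all genes, and across members the 2 displacements had a Pearson correlation of 0.67 and a Spearman correlation of 0.65 (n = 98 genes that share the same 6 arrays), against a Pearson correlation of 0.53 over all genes. In 11 members array 1 was lower by over 0.5 in both groups: CTNNA2, LOC100506563, LINC00844, FRMD6, MATN2, GBP3, COL12A1, LPXN, GLYATL2, SPOCK1 and GPNMB. In SMIM3, CSTA and YPEL2 it was higher by over 0.5 in both.

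The difference taken within array number 1 had a median of 2.05 and ranged from 0.74 (GPNMB) to 3.33 (STON1), and that taken within arrays 2 and 3 had a median of 1.72 and ranged from 1.08 (PPARGC1A) to 2.91 (ARL15). It was larger in array 1 in 76 members. It was at least 1.5 in array 1 for 88 members and in arrays 2 and 3 for 82. A positive difference in array 1 and in arrays 2 and 3 was fixed by the rule, so only the sizes are described. What part the RNA integrity of siPCARNEQ array 1 has in these sizes was not tested beyond these values.

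**Figure D3:**
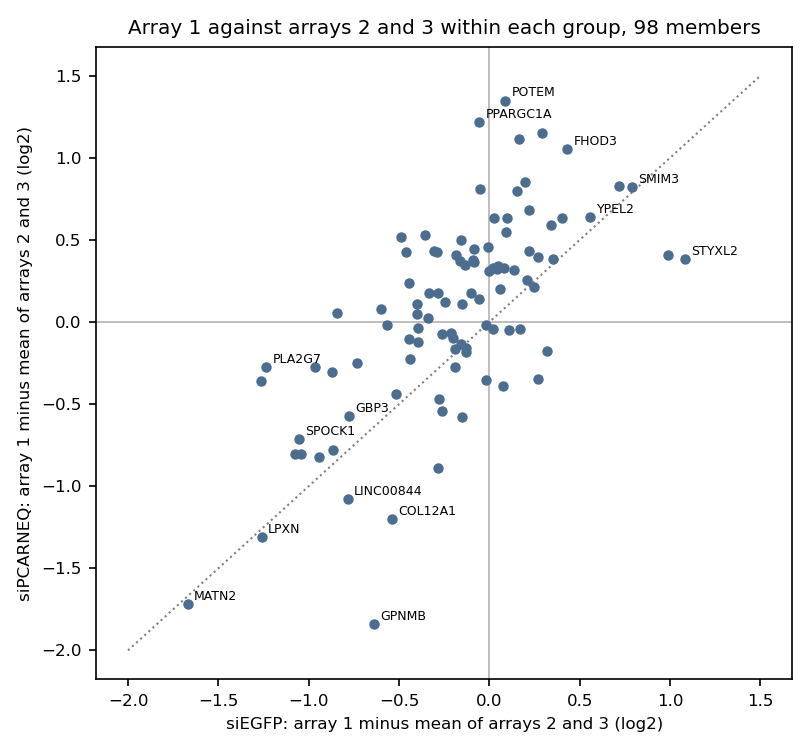
Displacement of array 1 from the mean of arrays 2 and 3 (log2) in siEGFP on the horizontal axis and in siPCARNEQ on the vertical axis, with 1 point for each of the 98 members. The 2 displacements had a Pearson correlation of 0.67, and 64 of the 98 members were displaced in the same direction in both groups. MATN2 and LPXN lie far down on both axes, GPNMB lies furthest down in siPCARNEQ, and some members, such as PPARGC1A, lie well off the diagonal.

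Another reading of the same genes came from probe sets that the rule had not used. Of the 98 members, 57 had 122 other single-gene probe sets in all, and 41 had none. Of the 122, 33 were higher with siPCARNEQ by at least 1 on the log2 scale, 24 by 0.5 to 1, 65 lay within 0.5 of no difference and 0 were lower by 0.5 or more. Their median difference was 0.39, with a range of -0.31 to 2.34. Of the 50 with a mean above the array median 23 differed by at least 1 (median 0.96), and of the 72 below it 10 did (median 0.15). That mean was taken over all 6 arrays, so a higher siPCARNEQ level itself lifts a probe set into the brighter class. Another FRMD6 probe set, with a siEGFP mean of 6.08, is such a case. The split is thus partly fixed by the differences it sorts, and no link with brightness is read from it. The same arrays carry both readings, so this reading says whether a gene's probes move together and not whether the arrays replicate.

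In 27 of the 57 members at least 1 other probe set was higher by at least 1, and in 7 of these another probe set differed more than the brightest. These were SHANK2 (2.34 against 1.72), FRMD6 (2.26 against 2.09), SOX9 (2.15 against 1.74), GPNMB (1.97 against 1.54), CREBRF (1.83 against 1.78), ZCCHC24 (1.62, the same to 2 decimals as 1.62) and CALML4 (1.62 against 1.60). In 11 members the best other probe set lay between 0.5 and 1. In 19 members all others were under 0.5, namely ADRB1, APBA1, ATP8B2, CHST15, EIF2AK3, FRMD4B, FSTL1, LPXN, MAFF, MATN2, MYCL, NAPG, PPARGC1A, RALGPS1, SSTR1, STON1, SYNE2, VWA5A and ZNF697. Some of these other probe sets were not dim. Another NAPG probe set read a mean of 9.56 with siPCARNEQ and 9.51 with siEGFP, a RALGPS1 one 8.22 and 8.20, and an LPXN one 8.35 and 8.25. The same held for other probe sets above the array median of ATP8B2 (0.23), MYCL (0.25), MAFF (0.18), VWA5A (0.13) and SYNE2 (-0.11). For these 8 genes the difference of the brightest probe set was thus not shared by another probe set whose mean lies above the array median. In all, 13 of the 50 other probe sets above the array median lay within 0.5 of no difference. The rest of these came from CPD (0.49 and 0.20), SLC25A16 (0.26), SHANK2 (0.21) and CALML4 (0.47). Each of those genes also had another probe set that was higher by more than 0.5. Where probe sets whose names mark them as matching several transcripts were dropped, another probe set stood for the gene, and it differed by -0.10 for MATN2, -0.11 for SYNE2, 0.10 for LPXN, 0.39 for PDE7A, 0.52 for EFHC2 and 0.59 for ELAPOR1. Those of MATN2 (mean of 5.58), PDE7A (6.17), EFHC2 (4.82) and ELAPOR1 (6.78) lay below the array median, and those of SYNE2 and LPXN above it. A dimmer ELAPOR1 probe set differed by 1.71, and a dropped one of PDE7A by 1.14.

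**Figure D4:**
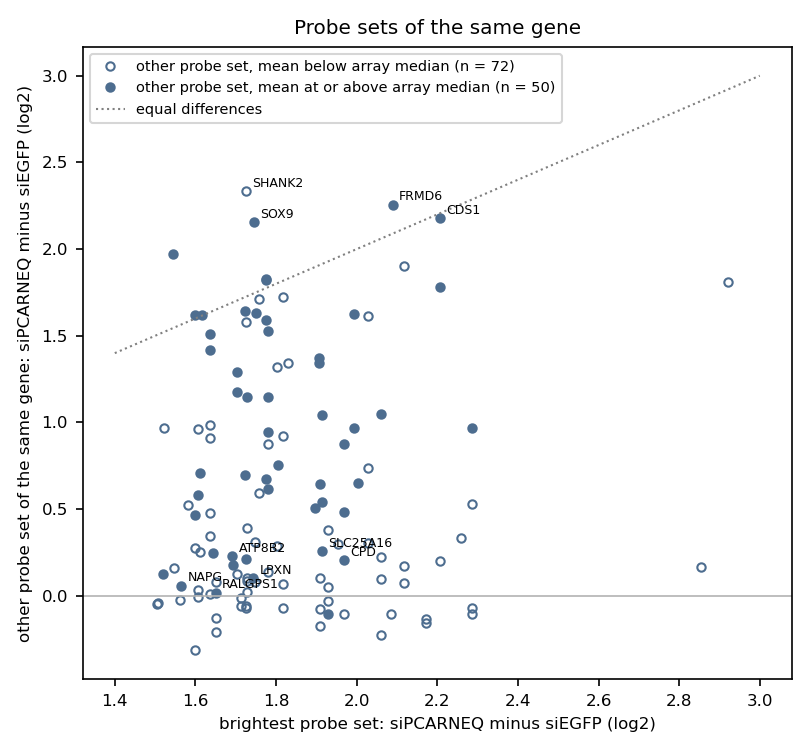
Log2 difference of the other probe sets of the members against the difference of the brightest probe set, 1 point for each of the 122 other probe sets, with a dotted line where both would be equal. Filled points, with a mean over all 6 arrays above the array median, have a median of 0.96. Open points, below it, have one of 0.15, and 65 of the 122 lie within 0.5 of 0.

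Relatives of the members were picked from gene families by name after the members were known. Their median difference was 0.125, against -0.01 over all genes. The shares of all genes at the cutoffs used below were not counted, so the counts of relatives are a description alone. Of 71 measured relatives in 34 families, 7 were higher by at least 1, 15 by 0.5 to 1, 42 lay within 0.5 of no difference and 7 were lower by 0.5 or more, with 24 of the 71 below the array median with siEGFP. Beside PRKCA (2.29) stood 7 other protein kinase C genes, of which PRKCD was at 1.42, PRKCH at 1.07, PRKCZ at 0.51, PRKCI at 0.32, PRKCE at 0.20, PRKCB at 0.06 and PRKCQ at -0.09. Beside TMTC1 (2.03) stood TMTC2 at -2.01, TMTC3 at -2.74 and TMTC4 at -0.34, with values of the other sign in the same enzyme family. MYCL (1.64) likewise stood beside MYC at -1.56 and MYCN at -0.25, and PPARGC1A (1.51) beside PPARGC1B at -0.99. The Golgi mannosidase MAN1A2 differed by -0.86, against 1.83 for MAN1A1. AKR1C3 (1.54) had close copies AKR1C1 at -0.10 and AKR1C2 at 0.16, and CTBP1 differed by -0.09 beside its antisense CTBP1-AS at 1.73. ATP8B4 and ATP8B3 differed by 1.48 and 1.16, RCAN2 by 1.21 and CYP4F11 by 1.31. CGN, the paralog of CGNL1 that was left out by name, differed by 1.82. These relatives were not tested.

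The pathway lists described next were written from general knowledge with results of these data known. Over all 19775 genes, limma with Benjamini-Hochberg adjustment called 3007 genes higher (15.2%) and 2438 lower (12.3%), and each list's counts, members included, are read against those shares. With arrays 2 and 3 of each group counted as 1 replicate, since they lay closer to each other than to array 1, 1196 genes rose and 1040 fell. Of 16 measured ARF and ARL GTPases 3 rose, ARL15 among them, and 3 fell, with a median difference of 0.01. Each share was 18.8%. ARF4, an ARF of the early secretory pathway, rose by 0.64 (SE 0.06, limma adjusted p = 0.000491) and ARL1, of the trans-Golgi, by 0.35 (SE 0.09, limma adjusted p = 0.0213). SAR1B and SAR1A, which start COPII coats, fell by 0.82 (limma adjusted p = 0.000352) and 0.67 (limma adjusted p = 0.00438), and ARF3 fell by 0.47 (limma adjusted p = 0.00872). Up and down calls were equal in number in this family.

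Of 45 clathrin and endocytic adaptor genes 17 rose, STON1 included, and 4 fell, with a median difference of 0.15. The shares were 37.8% rising and 8.89% falling, against 15.2% and 12.3% of all genes. SNAP91, a neuronal clathrin assembly protein, rose by 1.13 (limma adjusted p = 0.00011), the adaptor kinase AAK1 by 1.14 (limma adjusted p = 0.000242) and EPS15L1 by 0.51 (limma adjusted p = 0.00127). ITSN2, an intersectin, fell by 0.78 (limma adjusted p = 0.00101), AP2B1 by 0.45 (limma adjusted p = 0.0113) and AP1S3 by 2.44 (SE 0.5, limma adjusted p = 0.00984). The AP1S3 arrays were uneven, with a SD of 1.12 with siPCARNEQ. With arrays 2 and 3 counted as 1 replicate, 8 genes of this list rose and 1 fell.

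Of 29 serpins 2 rose, SERPIND1 included and SERPINA3 by 0.28 (limma adjusted p = 0.0308), and 1 fell, SERPINI1, by 1.78 (limma adjusted p = 0.000618). The mean over all 6 arrays lay below the array median in 21 of the 29. Of 46 hepatocyte plasma protein genes, the class to which SERPIND1 belongs, 4 rose and 2 fell (median difference -0.03), and 27 were below the array median. KNG1, kininogen, rose by 1.0 (SE 0.27, limma adjusted p = 0.0309), A1BG by 0.58 (limma adjusted p = 0.0177) and ITIH4 by 0.28 (limma adjusted p = 0.0381), while F12, coagulation factor XII, fell by 0.48 (limma adjusted p = 0.00728) and APOE by 0.35 (limma adjusted p = 0.0367). The shares of rising serpins and hepatocyte genes, 6.9% and 8.7%, were below the 15.2% of all genes. Their shares of falling genes, 3.45% and 4.35%, were also below the 12.3% of all genes. Leaving out siEGFP array 2 or siEGFP array 3 left 1 of the hepatocyte list rising, and 1 fell without siPCARNEQ array 2 or 3 or siEGFP array 1 or 2. Of the serpins 1 rose without siPCARNEQ array 2 or 3 or siEGFP array 1 or 2, and 2 fell without siPCARNEQ array 1.

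Of 376 solute carrier genes 75 rose, among them the members SLC23A1, SLC25A16 and SLC39A11, and 39 fell, with a median difference of 0.01. The shares were 19.9% rising and 10.4% falling, against 15.2% and 12.3% of all genes. The mitochondrial carrier SLC25A30 rose by 0.95 (limma adjusted p = 0.000115), SLC67A1 by 0.98 (limma adjusted p = 0.000134) and the sugar phosphate exchanger SLC37A1 by 1.05 (limma adjusted p = 0.000158). The choline transporter SLC44A1 fell by 2.54 (limma adjusted p = 2.72e-05), the monocarboxylate transporter SLC16A7 by 2.22 (limma adjusted p = 2.82e-05) and the amino acid transporter SLC38A2 by 1.30 (limma adjusted p = 7.2e-05). These genes were named for their small p and not for the size of their change, and with arrays 2 and 3 counted as 1 replicate 37 solute carriers rose and 19 fell.

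Targets of FOXO factors, of TGF-beta and BMP signals and of PPAR receptors were listed because members such as NEDD9 and PPARGC1A are linked with them. Of 39 FOXO targets, none a member, 12 rose and 5 fell (median difference 0.14). The shares were 30.8% rising and 12.8% falling, against 15.2% and 12.3% of all genes. Catalase (CAT) rose by 0.97 (limma adjusted p = 0.000171), RBL2 by 0.79 (limma adjusted p = 0.000414) and KLF6 by 0.66 (limma adjusted p = 0.00185), while the death factor BCL2L11 fell by 1.29 (limma adjusted p = 9.91e-05), BCL6 by 0.66 (limma adjusted p = 0.000671) and SESN3 by 1.42 (limma adjusted p = 0.000899). Targets were called in both directions. With probe sets of several transcripts dropped 7 rose, with arrays 2 and 3 counted as 1 replicate 5, and without array 1 of both groups 19. Over all genes these settings gave 2413, 1196 and 4514 rising genes, so the list counts cannot be read apart from those totals.

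Of 37 TGF-beta and BMP targets 8 rose and 2 fell (median difference 0.03), with NEDD9 as the only member. The shares were 21.6% rising and 5.41% falling, against 15.2% and 12.3% of all genes. The homeobox genes MSX2 and MSX1 rose by 1.11 (limma adjusted p = 0.000138) and 0.85 (limma adjusted p = 0.000404) and BHLHE40 by 1.33 (limma adjusted p = 0.000491). With probe sets of several transcripts dropped, 2 genes of the list rose, beside 2413 of all genes. Without array 1 of both groups 9 fell, beside 3715 of all genes. TGFB2 fell by 0.76 (limma adjusted p = 0.0267) and BAMBI by 0.74 (limma adjusted p = 0.0428). Of 40 PPAR target and lipid droplet genes 8 rose (20%) and 5 fell (12.5%), with a median difference of 0.03. The fatty acid oxidation genes ACADVL, CPT1A and ACAA1 rose by 0.98 (limma adjusted p = 0.000471), 0.60 (limma adjusted p = 0.00344) and 0.61 (limma adjusted p = 0.00558), while ACSL4, HILPDA and ACADM fell by 1.69 (limma adjusted p = 0.000258), 0.63 (limma adjusted p = 0.00258) and 1.17 (limma adjusted p = 0.0123). Genes of fatty acid oxidation were thus called in both directions. Without siPCARNEQ array 2 or any 1 of the siEGFP arrays 4 genes of the PPAR list rose, without siPCARNEQ array 3 there were 5, and 3 fell without siEGFP array 2 or 3. Of the TGF-beta and BMP list 1 gene fell without siPCARNEQ array 1 or 3 or siEGFP array 1. It was 0 (limma) without siPCARNEQ array 2, siEGFP array 2 or siEGFP array 3, with 3, 3 and 2 genes at an unadjusted p under 0.05.

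Cell type markers were read beside the members, since matrix, neural and secretory genes are among them. Of 12 luminal prostate markers 10 rose and 0 fell (limma, also 0 down at an unadjusted p under 0.05), with a median difference of 0.68. The share rising was 83.3%, and over all genes 15.2% rose and 12.3% fell. Of the 12, 3 are among the genes left out by name, and TMPRSS2, KLK3 and STEAP2 rose by 1.15 (limma adjusted p = 0.000727), 0.51 (limma adjusted p = 0.00144) and 0.53 (limma adjusted p = 0.00164). The luminal identity that the label LNCaP implies was present on all arrays, with a KLK3 mean of 14.10 ± 0.03 (SD, n = 3) with siPCARNEQ and 13.58 ± 0.06 with siEGFP. Of 9 basal markers 2 rose (22.2%) and 1 fell (11.1%). Of 13 neuroendocrine markers 3 rose (23.1%) and 0 fell (limma, also 0 down at an unadjusted p under 0.05). Of 13 fibroblast and smooth muscle markers 2 rose (15.4%) and 1 fell (7.69%). The log2 of the summed intensity ranged with siPCARNEQ and siEGFP from 16.21 to 16.24 and 15.52 to 15.64 for luminal, 10.17 to 10.28 and 10.42 to 10.51 for basal, 12.27 to 12.75 and 11.33 to 11.62 for neuroendocrine, and 11.64 to 11.83 and 11.28 to 11.34 for fibroblast and smooth muscle markers. The median difference of a single marker was -0.02 for basal, -0.01 for neuroendocrine and -0.14 for fibroblast and smooth muscle markers, and the sums lean on their brightest genes, among them DDC (means of 12.20 and 10.88) and COL1A1 (10.79 and 9.68). Basal KRT14 and CDH3 rose by 1.02 (limma adjusted p = 0.000307) and 0.78 (limma adjusted p = 0.0033), and ITGA6 fell by 0.98 (limma adjusted p = 0.0013). Neuroendocrine DDC, SYT1 and ENO2 rose by 1.32 (limma adjusted p = 0.00456), 0.70 (limma adjusted p = 0.00771) and 0.72 (limma adjusted p = 0.0323), while the defining CHGA read 5.66 and 5.68, below the array median. Of the fibroblast and smooth muscle markers COL1A1 and LUM rose by 1.11 (limma adjusted p = 0.000544) and 1.39 (limma adjusted p = 0.000949), ACTA2 fell by 0.46 (limma adjusted p = 0.00713), and the muscle markers DES (7.02 and 7.14) and MYH11 (7.25 and 7.39) were near the array median. Of 12 immune and endothelial markers 0 rose and 0 fell (limma, 0 up and 1 down at an unadjusted p under 0.05), 9 lay below the array median, and their summed level was 10.13 to 10.15 and 10.12 to 10.28. The part of these cell type markers in the members' differences was not tested.

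The members were also compared with all genes by their upstream windows. The RefSeq promoter table held a window for 75 members and for 15381 measured genes. The observed over expected CG ratio had a median of 0.731 in the members and 0.745 in all genes, and the GC content a median of 63.2% and 62.4%. A ratio under 0.5, as for SERPIND1, SCGB1D2 and CTNNA2, was found in 29 members, 38.7% against 30% of all genes. These 29 had a median difference of 1.88, and the other 46 had 1.77. The 29 also had lower siEGFP means, with a median of 6.81 against 8.37. The siEGFP mean lay below the array median in 17 of the 29 and in 13 of the 46.

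**Figure D5:**
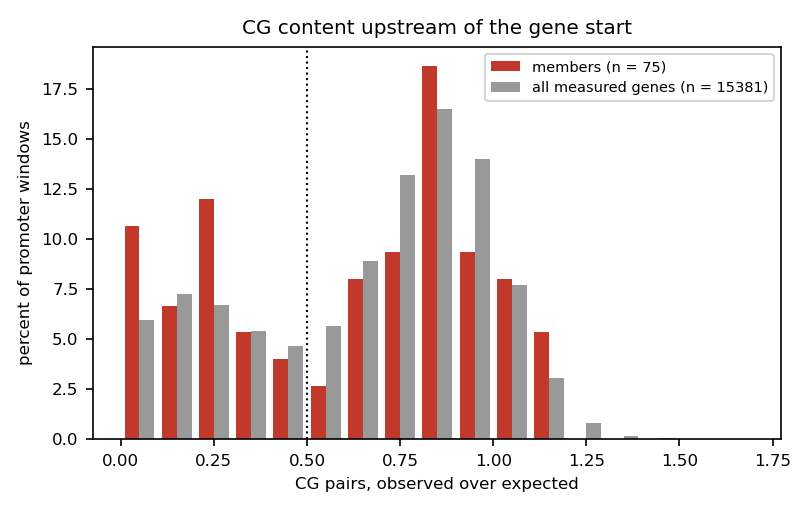
Share of genes (percent) by the observed over expected ratio of CG pairs in the 250 bases upstream of the start, for the 75 members with a window and for all 15381 measured genes with one. Both distributions have a low and a high mode, and 38.7% of the members against 30% of all genes lie under 0.5.

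Short motifs were searched on both strands of the windows, and each share is given for the members and then for all genes. The GC box GGGCGG was found in 50.7% and 56.3%, CCAAT in 40% and 34.1%, TATAAA in 8% and 8.32%, and the E-box CACGTG in 12% and 7.83%. The AP-1 motif TGACTCA was found in 5.33% and 3.18%, the cyclic AMP motif TGACGTCA in 4% and 2.38%, and AGAACA, part of the steroid receptor element, in 13.3% and 9.35%. The ETS motif CCGGAAG was found in 4% (3 members) and 12%, the forkhead motif TGTTTAC in 0 members and 2.25%, and the E2F motif TTTCCCGC in 0 members and 1.86%. A match only describes letters in the window, and these shares were not tested.

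By position, 5 pairs of members lay within 5 measured genes of each other. LINC00622 and ZNF697 were adjacent among the measured genes, and their differences were 2.25 and 1.95. SOX9 and SLC39A11 lay 3 measured genes apart, as did CYP4F62P and CYP4F30P, and LPXN and GLYATL2 and also MAFF and KDELR3 lay 4 apart. LPXN and GLYATL2 shared the low array 1 in both groups, and the CYP4F pair are copies of 1 gene family.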

How the data were processed

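Total RNA of LNCaP cells was hybridised to 6 single-colour Affymetrix arrays, 3 for each siRNA. The deposited table holds 1 linear intensity for each probe set and array, made with RMA per the submitters' processing notes, which give no version. RMA removes background, forces 1 distribution on the arrays and merges the probes of a set, so a shift of all transcripts together cannot be seen. The sorted arrays differed by at most 0.0049 after log2. The probe file and genome build behind the values were not given in the sources used here. Log2 was taken with no pseudocount.

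Of 54675 probe sets, 62 controls were left out, 41091 were paired with 1 gene, 1801 with several and 11721 with none in the platform annotation. Symbols were compared with RefSeq by gene identifier: 54 single-gene probe sets had no match and 0 symbols were updated. The brightest single-gene probe set stood for each of 19775 genes. Groups were compared over all genes with limma 3.58.1 in R 4.3.3 (lmFit and eBayes, 2-sided, Benjamini-Hochberg, threshold 0.05), and the scripts were tested on simulated data. Tables were made in Python 3.11.15.

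The members, the lists and the rule for named genes were chosen with earlier results of these data known, and the lists come from general knowledge. The rule names the 30 members with the largest difference with their 6 values, the other members by their difference, the 5 on either side of the threshold, and from each list up to 3 other genes with the smallest p in each direction.

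Promoter windows came from a RefSeq table (GRCh38.p14), matched by gene identifier. The CG ratio is the count of CG pairs times the window length over the product of the C and G counts.

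Arrays carry numbers 1 to 3 in both groups. Deviations of same-numbered arrays from their group means correlated at 0.53, 0.36 and 0.38 over genes. Each was over 0.1, and on that basis the numbers were used as a replicate block in an alternative fit, though the labels state no shared batch. Array 1 correlated negatively with arrays 2 and 3 of the other group (-0.39 to -0.48), and arrays 2 and 3 positively with each other (0.41 and 0.31). The 0.41, of siPCARNEQ array 2 with siEGFP array 3, was above the same-numbered 0.36 and 0.38. These values set array 1 apart in both groups and do not pair arrays 2 and 3 by number. The main limma fit, which gave the printed p-values, had no pairing term. Alternatives were a replicate block, a filter at the median level, the mean of all probe sets, leaving out probe sets that can match several transcripts, an intensity trend, a further quantile normalization, arrays 2 and 3 averaged, and leaving out each array.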

Additional observations from a re-analysis of the deposited data

How the results depend on the processing

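When any single array was left out, a positive difference in all 98 members was fixed by the rule, so only the sizes are described. Each member's difference then stayed at 1 or more on the log2 scale. The count of genes that meet the rule ranged from 89 to 113 and the members' median difference from 1.76 to 1.85. Between 3 (without siEGFP array 3) and 16 (without siEGFP array 1) of the 98 then no longer met the rule. A further quantile normalization left all 98 meeting it, but the arrays already shared 1 distribution, so it could change little. A replicate block or an intensity trend cannot change these mean differences. With the replicate block as a term, 3805 genes rose and 3029 fell over all genes, and 2 serpins fell; no other count moved by over 1.5 times. With the mean of all probe sets of a gene, 53 genes met the rule, all of them members. The 41 members with 1 probe set could not change in this setting, and 45 of the other members no longer met the rule. The members' median difference, those 41 included, was 1.53, and the lowest was 0.28 (RALGPS1). Without probe sets named as matching several transcripts, MATN2 differed by -0.10 and SYNE2 by -0.11, because another probe set then stood for the gene. The one for MATN2 lay below the array median. Arrays 2 and 3 averaged as 1 replicate gave 107 genes that meet the rule, 92 of them members. The alternative without array 1 of both groups was chosen after seeing the data and gave 96, of which 82 were members.

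List counts moved more. Filtering at the median level left 1 serpin rising, with 2920 genes rising and 2429 falling over all genes. With the mean of probe sets, 2 endocytic genes, 2 serpins, 1 TGF-beta and BMP target and 1 hepatocyte gene fell. Over all genes 2794 rose and 2424 fell in that setting. Without probe sets of several transcripts, 1 ARF or ARL gene, 2 endocytic genes and 1 hepatocyte gene fell, and 7 FOXO and 2 TGF-beta and BMP targets rose. The counts over all genes were lower there too, at 2413 rising and 1879 falling. With arrays 2 and 3 averaged, 1196 genes rose and 1040 fell over all genes. In that setting 8 endocytic genes, 1 serpin, 5 FOXO targets, 3 PPAR genes, 1 hepatocyte gene and 37 solute carriers rose. In it, 1 endocytic gene, 2 PPAR genes and 19 solute carriers fell, with 0 TGF-beta and BMP targets and 0 hepatocyte genes (limma, 2 and 2 at an unadjusted p under 0.05). That setting has fewer replicates. Without array 1 of both groups, 4514 genes rose and 3715 fell, with 5 ARF or ARL genes, 19 FOXO targets and 9 hepatocyte genes rising. Then 7 endocytic genes, 3 serpins, 8 FOXO targets, 9 TGF-beta and BMP targets, 4 hepatocyte genes and 60 solute carriers fell. The cause of the other moves was not tested.

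Leaving out 1 array at a time gave 2042 to 3444 genes that rose and 1658 to 2859 that fell. Rising counts ranged from 1 to 3 for serpins, 4 to 8 for the PPAR list and 1 to 5 for the hepatocyte list. Falling counts ranged from 1 to 2 for serpins, 0 to 1 for the TGF-beta and BMP list, 3 to 6 for the PPAR list and 1 to 2 for the hepatocyte list. The 3 arrays of each group limit the precision, 41 members were read by 1 probe set, and 40 had siEGFP means below the array median.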
